A study of Hansenula anomala with 15 samples.

Results

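The transcripts described here are those of 46 genes of the yeast Wickerhamomyces anomalus whose deposited KOG annotation (a homology class of eukaryotic proteins) names a translation initiation factor, a translation elongation factor, or elongation factor 1 or 2. The deposited table holds 6571 genes, of which 6327 passed the filter on low counts, the 46 among them. By role they fall into 6 cytosolic elongation factor genes, 30 genes of the cytosolic initiation factors eIF1 to eIF5B, 2 mitochondrial factors and 8 genes that the annotation relates to such factors. A symbol given by homology was available for 32 of them, and the others are called by their annotated factor and locus tag.

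Initiation factors bring the ribosome, the initiator tRNA and the mRNA together at the start codon. In yeasts the cap of the mRNA is bound by eIF4E. The scaffold eIF4G holds eIF4E and the helicase eIF4A and helps to bring in the small ribosomal subunit. The GTPase eIF2 carries the initiator tRNA and is recharged with GTP by eIF2B, the step at which starvation signals slow protein synthesis. Elongation factors then deliver aminoacyl-tRNAs (eEF1A, recharged by eEF1B), move the ribosome along the mRNA (eEF2) and, in fungi, help to clear the exit site (eEF3). In budding yeast, genes for these factors and for ribosomal proteins are known to be expressed most strongly in fast growth.

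The study followed apricot fermentation by this yeast, labelled with the organism name Hansenula anomala. Whole fermentation broth was sampled at 0, 16, 32, 48 and 64 h in 3 biological replicates per time point (15 libraries), and polyadenylated RNA was sequenced. The labels give no strain, genotype, medium or treatment apart from time, and no control other than the 0 h broth. They do not say whether the replicates came from separate fermentations, so p-values measure the spread between these libraries. Levels are relative within a library, so they give neither the number of cells in the broth nor the RNA per cell.

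The libraries held 17.6 to 40.1 M counts, and 3 counts, taken as the floor, corresponded to 0.0681 to 0.22 CPM. Levels are given as CPM (counts per 1 M counts of a library, scaled by TMM), listed in the order of replicates 1, 2 and 3, and the length-corrected CPM per kb is used where genes are compared with each other. The TMM factors spanned 0.389 to 1.83, so the scaling matters: without them the median log2 fold change of all tested genes moved from 0.09 to -0.60 in the first 16 h, from -0.06 to 1.10 in the next 16 h, and from -0.02 to 0.24 over the whole course. Group medians are therefore also given relative to the median of all genes. A scaling factor shifts all genes of a library alike, so this relative value nearly cancels it and does not test the scaling. Replicate 2 at 16 h (rank correlation with its own group at most 0.742) and replicate 3 at 64 h (at most 0.837, but 0.951 with a 32 h library) stood apart, with the lowest own-group values. Replicate 3 at 32 h was also closer to a 48 h library (0.965) than to its own group (0.886). The same held by less for 48 h replicates 1 (0.954 with a 32 h library, 0.935 within) and 2 (0.965 and 0.955). Replicate 3 at 0 h differed from the other two by gene length: of the 18 members under 1000 bp it held the highest 0 h level for 11, and of the 12 members of at least 2000 bp it held the lowest for 9.

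Most translation factor transcripts were highest at the start of fermentation, 27 of the 46 by their TMM-scaled means and 22 of the 30 initiation factor genes among them. Of all genes with a count 30% were highest at 0 h. Over the 5 time points 34 of the 46 members changed (73.9%, edgeR F test, adjusted p under 0.05), against 68.5% of all tested genes. Of those 34, 24 had their highest mean at 0 h (70.6%), against 33.2% of the 4336 genes that changed in the whole table. Scaled by library size alone, 23 of the 46 members and 18 of the 30 initiation factor genes were highest at 0 h, beside 22.1% of all genes. At 48 h 14 members were then highest in place of 2, beside 53.5% of all genes with a count in place of 13.7%. Together the 46 genes took between 0.875% and 2.60% of the counts of a library.

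**Figure D1:**
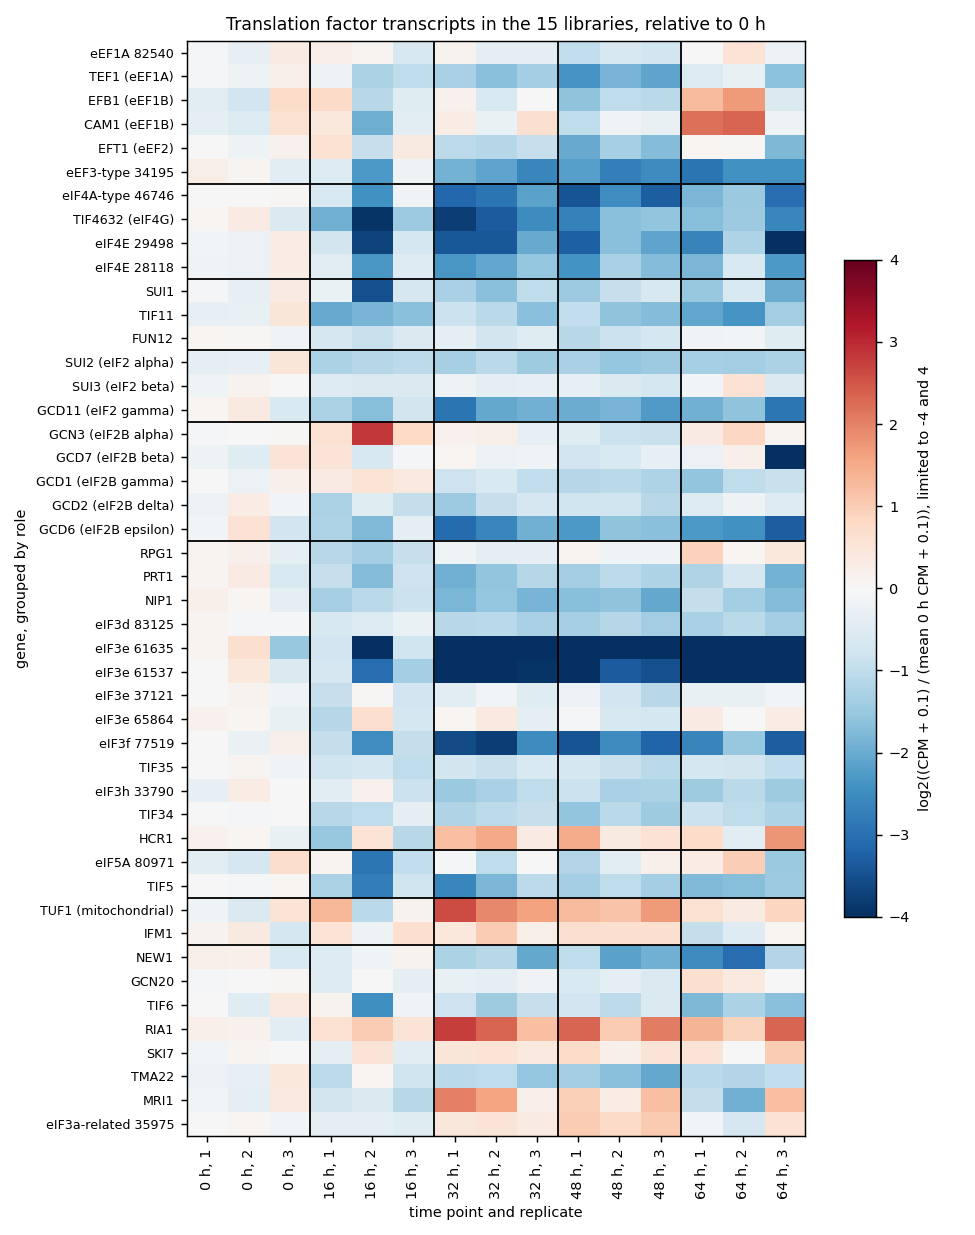
Level of each of the 46 genes (vertical axis, grouped by role) in each of the 15 libraries (horizontal axis, time point and replicate), as the log2 ratio of CPM to the mean of the 3 libraries at 0 h with 0.1 CPM added to both. Blue cells from 16 h on mark the eIF4F genes, SUI2, GCD11 and most eIF3 genes, red cells TUF1, RIA1 and MRI1 around 32 h, and replicate 2 at 16 h and replicate 3 at 64 h differ from their neighbours.

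In the first 16 h 13 of the 30 initiation factor genes fell, 1 rose and 16 did not pass the test. None of the 6 elongation factor genes passed (2 fell under library size scaling, beside 27.7% of all genes). The difference between these groups was not tested. For 16 h against 0 h, 13 members fell (28.3%, against 17.8% of all tested genes) and 1 rose (22.6% of all genes rose). All 14 calls were among the 30 genes of eIF1 to eIF5B, whose median log2 fold change was -0.88, or -0.97 relative to the median of all genes. Under library size scaling the relative value was also -0.97, as the subtraction cancels most of the scaling. There 21 of the 30 fell and 0 rose, beside 27.7% and 9.8% of all genes. The median of the 46 members was -0.73, and 39 of them were below 0, against 47.5% of all genes. Without replicate 2 at 16 h and replicate 3 at 64 h 13 fell and 1 rose, beside 20.4% and 22.5% of all genes.

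From 0 to 64 h 23 members fell (50%, against 25.8% of all tested genes) and 2 rose (26.6% of all genes rose). Of the 30 initiation genes 19 fell and 0 rose, with a median log2 fold change of -1.25. Of the 6 elongation genes 1 fell and 1 rose, with a median of -0.09 (0.09 under library size scaling). Relative to the median of all genes, these medians were -1.23 and -0.07. Under library size scaling the relative values were -1.28 and -0.14, kept close by the subtraction. There 14 initiation genes fell and 0 rose, beside 17.2% and 27.2% of all genes. Without the 2 libraries that stood apart 25 members fell and 3 rose, beside 29.6% and 27.2% of all genes.

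**Figure D2:**
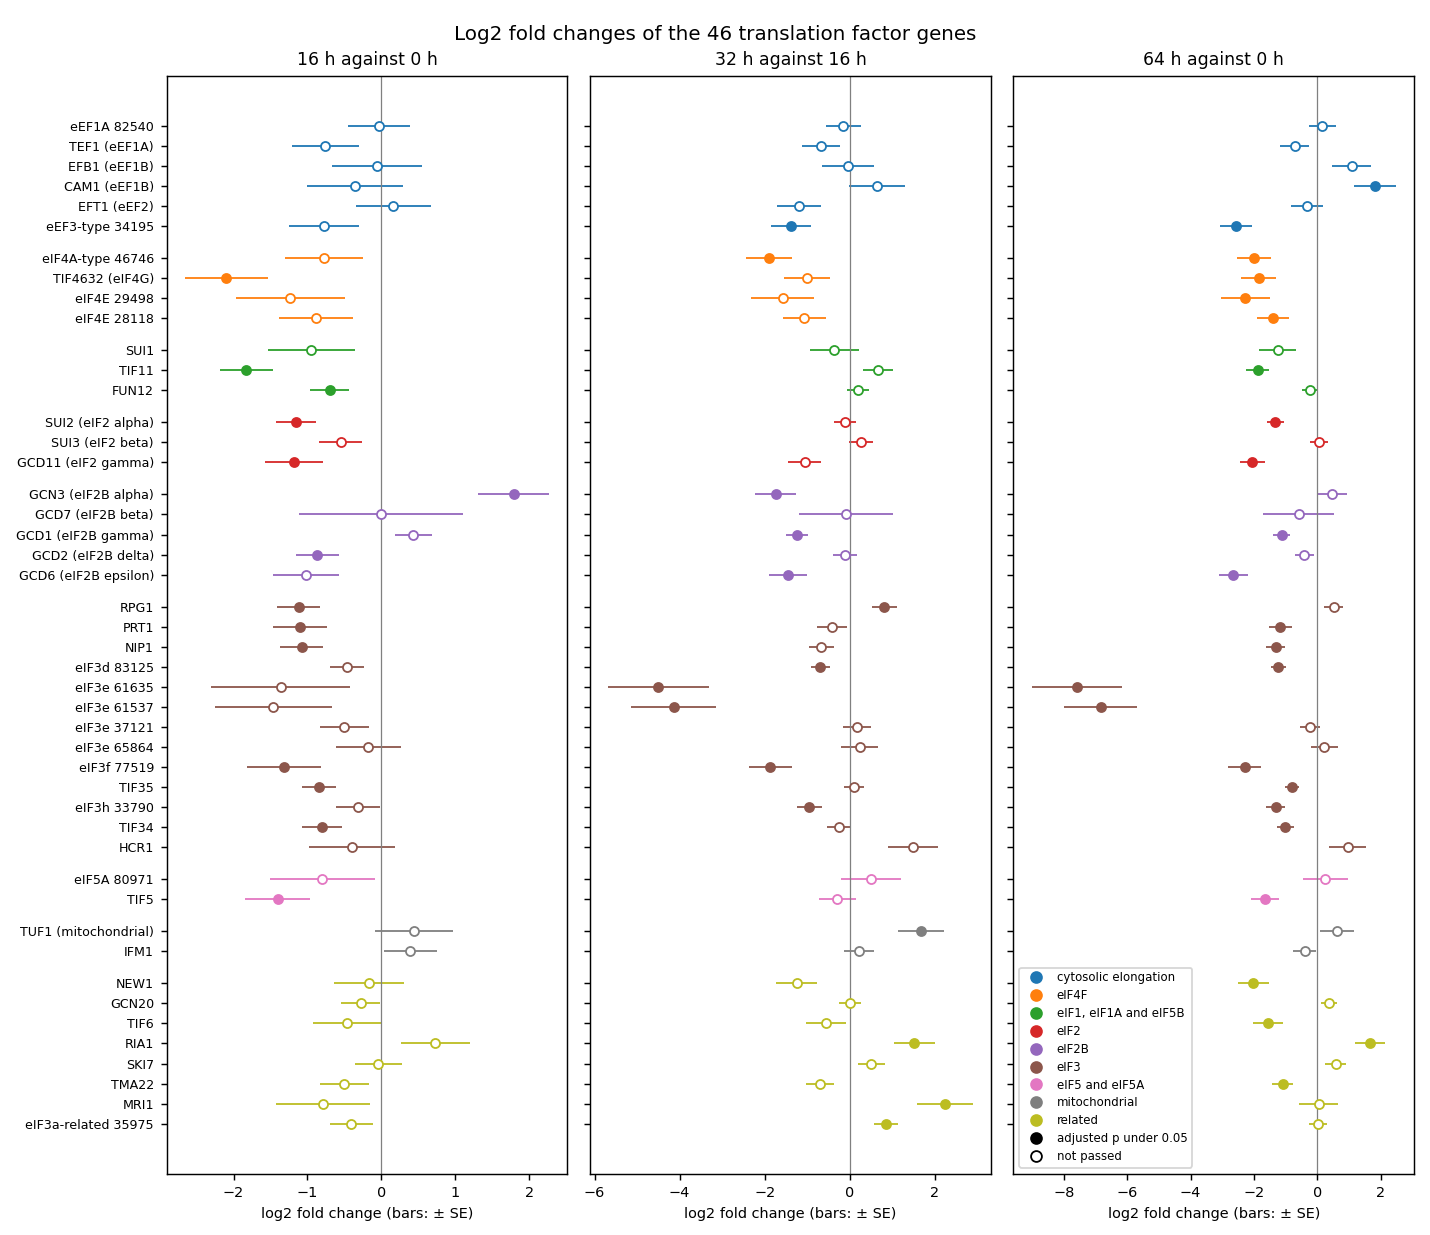
Log2 fold change (horizontal axis, bars ± SE, edgeR fit of 15 libraries) of each of the 46 genes (vertical axis, coloured by role) in 3 comparisons (left to right: 16 h over 0 h, 32 h over 16 h, 64 h over 0 h). Filled symbols mark adjusted p under 0.05: 14 genes in the left panel, 15 in the middle and 25 in the right, where all 4 eIF4F genes lie between -2.27 and -1.40.

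The most abundant members were elongation factors. At 0 h the mean level per length was 3332 CPM per kb for TEF1 and 3179 for WICANDRAFT_82540, both annotated as eEF1A, 1960 for EFB1, the nucleotide exchange subunit of eEF1B, and 1189 for EFT1, which encodes eEF2. Next to these stood 1544 CPM per kb for the eIF5A gene WICANDRAFT_80971. TEF1 and WICANDRAFT_82540 differed by less than their SDs of 534 and 762 CPM per kb. The lowest were SKI7 at 7.31 and the mitochondrial initiation factor IFM1 at 7.33 CPM per kb.

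The pair of eEF1A genes moved apart. TEF1 stood at 5887, 5252 and 7171 CPM at 0 h, at 2474, 1916 and 2393 CPM at 32 h, at 1191, 1682 and 1417 CPM at 48 h, and at 4162, 4987 and 1962 CPM at 64 h. All 32 h and 48 h libraries lay below all 0 h libraries, and at 64 h replicate 3 was far below the other two. TEF1 changed over the 5 time points (edgeR F test, adjusted p = 0.00879), while WICANDRAFT_82540, at 4979, 4237 and 6719 CPM at 0 h and 2710, 3421 and 3130 CPM at 48 h, did not pass (adjusted p = 0.33). Neither gene passed in any of the 5 comparisons between time points. Within a library the ratio of WICANDRAFT_82540 to TEF1 counts, which no scaling between libraries touches, was 0.807 to 0.937 at 0 h, 1.12 to 2.28 at 16 h, 1.69 to 2.36 at 32 h, 2.03 to 2.28 at 48 h and 1.28 to 2.30 at 64 h. Every library from 16 h on was above every 0 h library, and the ratio itself was not tested. Whether reads are shared between these related genes was not tested.

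The eEF3-type gene WICANDRAFT_34195, annotated with the ribosome-bound ATPase of fungi, had the largest fall among elongation factors. It stood at 2139, 1972 and 1341 CPM at 0 h, 1246, 366 and 1570 CPM at 16 h, 492, 419 and 300.2 CPM at 32 h, and 238, 343 and 337 CPM at 64 h. The 32 h and 64 h libraries were all below the 0 h ones. It fell by 2.57 on the log2 scale from 0 to 64 h (SE 0.49, adjusted p = 0.000609), and this call held under all 24 alternatives. The fall between 16 and 32 h (log2 -1.39, SE 0.47, adjusted p = 0.036) was lost in 11 of 24 alternatives, library size scaling among them (log2 -0.22).

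CAM1, which encodes the gamma subunit of eEF1B, was the member with the largest rise from 0 to 64 h. Its level was 663, 583 and 1314 CPM at 0 h, 424, 773 and 697 CPM at 48 h, and 3924, 4295 and 739 CPM at 64 h. At 64 h replicates 1 and 2 were above every other library, and replicate 3 lay within the 0 h range, so the groups overlapped. The log2 fold change from 0 to 64 h was 1.81 (SE 0.67, adjusted p = 0.0338), and the call ended in 7 of 24 alternatives, among them limma-voom and the fits without 64 h replicate 1 or 2. Without 64 h replicate 3 it was 2.27 (adjusted p = 0.00611).

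EFB1, whose product recharges eEF1A, had the same split at 64 h, with 4605, 6299 and 1290 CPM against 631, 950.1 and 915 CPM at 48 h. EFT1 stood at 3664, 3630 and 1002 CPM at 64 h against 869, 1385 and 1054 CPM at 48 h. For 64 h against 48 h no member passed the edgeR test (0 rose and 0 fell, beside 0% and 0.0158% of all genes), with 10 members at an unadjusted p under 0.05 (8 higher, 2 lower) beside 24.6% of all genes. DESeq2 called 7 members risen and 1 fallen, beside 9.31% and 4.54% of all genes, and limma-voom and library size scaling called 0 members. The log2 fold changes were 2.29 (SE 0.64, adjusted p = 0.0609) for EFB1, 2.24 (SE 0.68) for CAM1, 1.37 (SE 0.45) for TEF1, 1.33 (SE 0.52) for EFT1 and 0.93 (SE 0.43) for WICANDRAFT_82540, while the eEF3-type gene had -0.11 (SE 0.46).

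The count rests on 2 libraries. Without 64 h replicate 3, 5 members rose (TEF1, EFB1, CAM1, EFT1 and GCN20) and 3 fell (IFM1, MRI1 and WICANDRAFT_35975), beside 9.92% and 8.34% of all genes, shares near those of the members. Without 16 h replicate 2 as well 9 rose and 3 fell, beside 14.6% and 15.7% of all genes. In that last fit the elongation factors were higher at 64 h by log2 values of 2.71 for EFB1 (adjusted p = 0.00236), 2.70 for CAM1 (adjusted p = 0.00155), 1.73 for EFT1 and 1.68 for TEF1. Leaving out 16 h replicate 2 alone, which is in neither of the groups compared, gave 5 risen and 2 fallen, beside 7.62% and 5.96% of all genes. For 48 h against 32 h no member passed (0 of all genes; 1 member and 5.48% of all genes at an unadjusted p under 0.05), and DESeq2 and limma-voom likewise called 0 members.

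**Figure D3:**
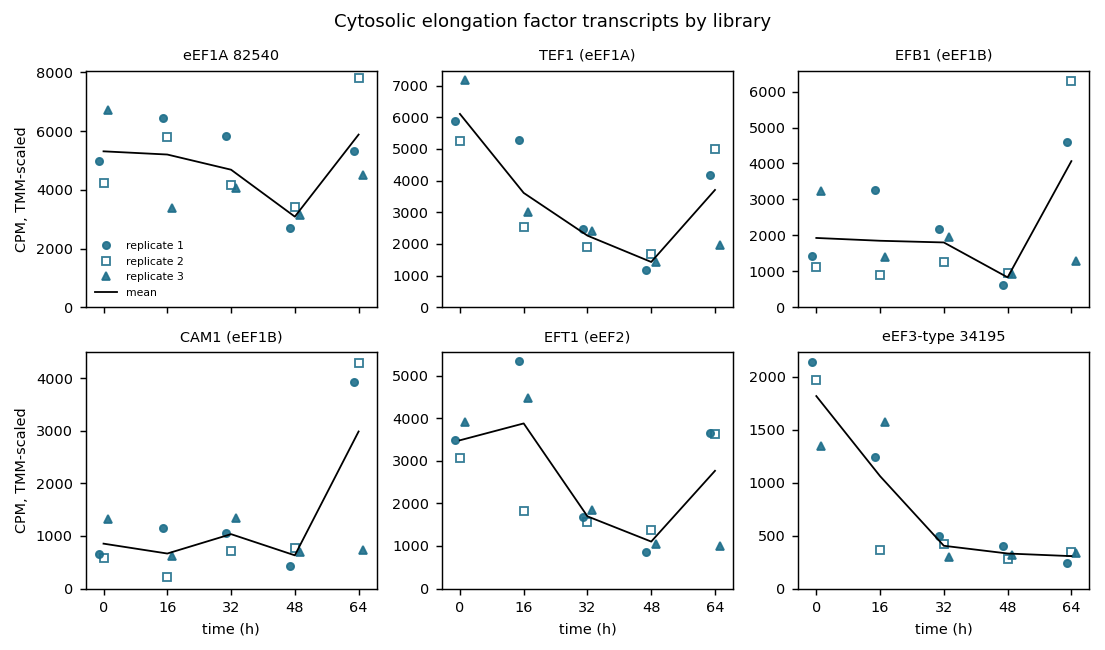
CPM of the 6 cytosolic elongation factor genes (vertical axes, linear from 0) against time (horizontal axes, symbols set slightly apart by replicate), with a line through the means of 3 libraries. At 64 h replicate 3 lies well below replicates 1 and 2 for TEF1, EFB1, CAM1 and EFT1, while the eEF3-type gene stays at or below 343 CPM in all 3.

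The cap-binding complex eIF4F was the class in which every member fell from 0 to 64 h, 4 of 4. This held under TMM and under library size scaling, where 25.8% and 17.2% of all genes fell. The eIF4A-type gene WICANDRAFT_46746, annotated with the helicase and its relatives, stood at 519, 512 and 537 CPM at 0 h, 344, 96.7 and 474 CPM at 16 h, 59.5, 69.1 and 118 CPM at 32 h, and 148, 185 and 62.9 CPM at 64 h. All libraries from 16 h on lay below the 0 h ones. It fell by 1.89 on the log2 scale between 16 and 32 h (SE 0.54, adjusted p = 0.0167), a call lost in 5 alternatives, library size scaling among them (log2 -0.65), and fell by 1.99 from 0 to 64 h (SE 0.54, adjusted p = 0.00707).

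TIF4632, the eIF4G scaffold, had the largest fall of all members in the first 16 h. Its level was 83.3, 99.0 and 52.4 CPM at 0 h, 20.7, 5.03 and 28.8 CPM at 16 h, 5.61, 7.78 and 13.7 CPM at 32 h, and 23.7, 28.7 and 12.7 CPM at 64 h. The groups from 16 h on did not overlap with 0 h. It fell by 2.10 (log2, SE 0.56, adjusted p = 0.00768) to 16 h and by 1.85 (SE 0.55, adjusted p = 0.0116) to 64 h, and both calls held in 24 alternatives.

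The 2 eIF4E genes, which encode cap-binding proteins, kept their order of abundance. WICANDRAFT_28118 stood at 122, 114 and 164 CPM at 0 h and 37.1, 87.7 and 26.9 CPM at 64 h, and WICANDRAFT_29498 of the same annotated length at 25.9, 23.7 and 33.9 CPM and 4.24, 11.7 and 1.42 CPM. In both the 64 h libraries were all below the 0 h ones, although replicates within 64 h spread widely. They fell by 1.40 (SE 0.51, adjusted p = 0.0321) and 2.27 (SE 0.77, adjusted p = 0.0224) on the log2 scale, and the calls ended in 5 and 3 of 24 alternatives, each time including the fit without 64 h replicate 3. At 16 h replicate 2 held the lowest level of the 3 libraries for all 4 eIF4F genes.

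Of the 3 eIF2 subunits SUI2 and GCD11 fell, and SUI3 did not pass the test. SUI2, the alpha subunit whose phosphorylation slows initiation in starved cells, stood at 59.3, 60.9 and 107 CPM at 0 h and at 31.2, 34.0 and 36.8 CPM at 16 h, and stayed between 25.9 and 36.8 CPM in every later library (35.5 CPM at most after 16 h). GCD11, the GTP-binding gamma subunit, went from 102, 123 and 62.4 CPM at 0 h to 40.2, 29.2 and 57.1 CPM at 16 h and 25.4, 31.1 and 12.95 CPM at 64 h. For both, no library from 16 h on reached the 0 h range. SUI3, the beta subunit, was at 74.2, 90.6 and 83.9 CPM at 0 h and 76.8, 123 and 56.0 CPM at 64 h, and did not pass in any comparison.

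In the edgeR fit SUI2 fell by 1.15 (log2, SE 0.27, adjusted p = 0.00323) to 16 h and by 1.33 (SE 0.27, adjusted p = 0.000895) to 64 h, and both calls held in 24 alternatives. GCD11 fell by 1.18 (SE 0.39, adjusted p = 0.0254) and by 2.05 (SE 0.40, adjusted p = 0.000738), the first call being lost in 5 alternatives. SUI3 had -0.55 (SE 0.29, adjusted p = 0.143) and 0.04 (SE 0.29, adjusted p = 0.916). The difference between subunits was not tested.

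TIF5, which encodes eIF5, the factor that triggers GTP hydrolysis by eIF2, was at 29.8, 29.3 and 31.8 CPM at 0 h. At 16 h it stood at 12.5, 4.32 and 17.4 CPM and at 64 h at 8.88, 9.20 and 10.9 CPM. No library from 16 h on reached the 0 h range, and replicate 2 was lowest at 16 h. It fell by 1.40 (log2, SE 0.44, adjusted p = 0.0182) and by 1.65 (SE 0.44, adjusted p = 0.00595), with both calls held in 24 alternatives.

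**Figure D4:**
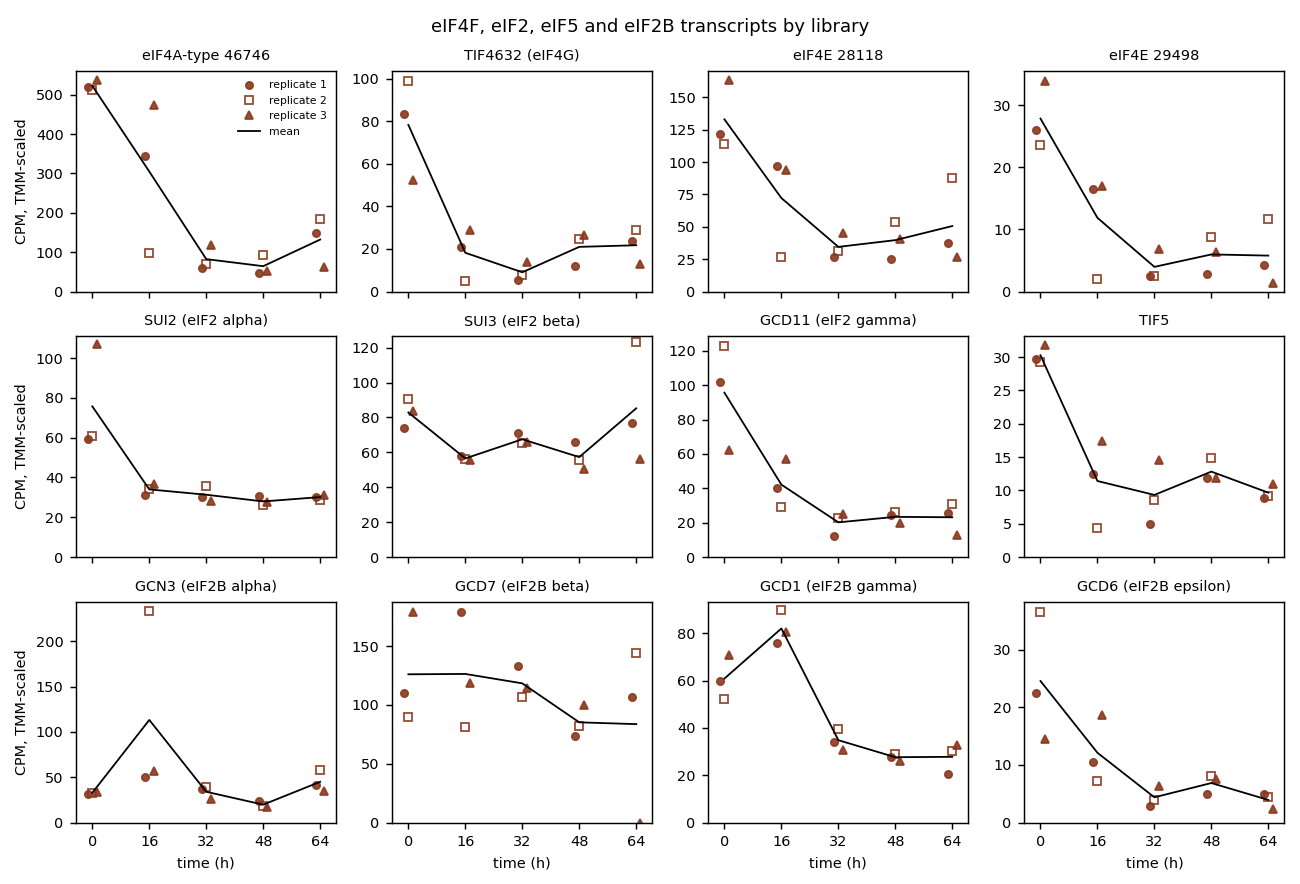
CPM of 12 genes of eIF4F, eIF2, eIF5 and eIF2B (vertical axes, linear from 0) against time (horizontal axes, symbols set slightly apart by replicate), with a line through the means of 3 libraries. SUI3 stays between 50.3 and 123 CPM while SUI2 and GCD11 drop by 16 h, GCN3 at 16 h rests on the 233 CPM of replicate 2, and GCD7 is at 0 in replicate 3 at 64 h.

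All 5 subunits of eIF2B, the exchange factor of eIF2, had a gene among the members, and the difference between them was not tested. GCN3, the regulatory alpha subunit, was the member that rose in the first 16 h, from 31.5, 33.0 and 34.1 CPM to 49.8, 233 and 57.1 CPM, and was at 37.1, 38.7 and 26.0 CPM at 32 h. All 16 h libraries were above all others except the 58.5 CPM of 64 h replicate 2, and replicate 2 was far above its neighbours. The rise of 1.79 (log2, SE 0.48, adjusted p = 0.00824) and the fall of 1.74 by 32 h (SE 0.48, adjusted p = 0.0136) both rest on that library: without it they were 0.70 (adjusted p = 0.06) and -0.66 (adjusted p = 0.0722), and the first passed without it only where 64 h replicate 3 was left out too (adjusted p = 0.0427). With all libraries, neither passed under library size scaling. Without both of these libraries GCN3 rose from 48 to 64 h (log2 1.33, adjusted p = 0.00268).

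GCD6, the catalytic epsilon subunit, fell by 2.65 from 0 to 64 h (log2, SE 0.47, adjusted p = 0.000355), from 22.6, 36.7 and 14.5 CPM to 4.89, 4.47 and 2.42 CPM, and the call held in 24 alternatives. GCD1, the gamma subunit that pairs with it, was tight within groups: 75.8, 89.97 and 80.6 CPM at 16 h against 34.2, 39.6 and 30.7 CPM at 32 h and 20.4, 30.1 and 32.9 CPM at 64 h. It fell by 1.24 between 16 and 32 h (SE 0.26, adjusted p = 0.00255), and the groups did not overlap, but library size scaling ended the call (log2 -0.09). GCD2, the delta subunit, fell by 0.87 to 16 h (SE 0.29, adjusted p = 0.0262), a call lost in 4 alternatives that each removed libraries, and had -0.41 at 64 h, not passed.

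GCD7, the beta subunit, was singled out after its values were seen. Its counts were 1259 to 4439 in 14 libraries and 0 in 64 h replicate 3, whose neighbours stood at 107 and 144 CPM. Of all 6571 genes, 3 had 0 counts in one library with at least 200 counts in each of the other 14, and they lay in 3 different libraries. The cause was not tested. With that library GCD7 had a log2 fold change from 0 to 64 h of -0.59 (SE 1.12, adjusted p = 0.674), and without it -0.01 (adjusted p = 0.991).

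Among the factors that act on the small subunit before and at subunit joining, TIF11, which encodes eIF1A, fell and stayed low. Its level was 126, 132 and 223 CPM at 0 h, 39.9, 44.1 and 50.7 CPM at 16 h, and 37.7, 31.2 and 61.4 CPM at 64 h, with no later library reaching the 0 h range. It fell by 1.83 (log2, SE 0.36, adjusted p = 0.00113) to 16 h and by 1.88 (SE 0.36, adjusted p = 0.000654) to 64 h, and both calls held in 24 alternatives. FUN12, the GTPase eIF5B of subunit joining, fell by 0.70 to 16 h (SE 0.26, adjusted p = 0.0428), a call lost in 15 alternatives, and had -0.24 at 64 h. SUI1, which encodes eIF1, was at 234, 195 and 311 CPM at 0 h and 206, 21.6 and 154 CPM at 16 h and did not pass in any comparison (log2 -0.95, SE 0.59, at 16 h; -1.26, SE 0.59, adjusted p = 0.084, at 64 h).

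The eIF3 complex, the scaffold that holds the other initiation factors on the small subunit, had 13 annotated genes. From 0 to 64 h 9 of them fell and 0 rose, beside 25.8% and 26.6% of all genes. Under library size scaling 5 fell and 0 rose, beside 17.2% and 27.2%. At 16 h 6 fell and 0 rose with TMM, beside 17.8% and 22.6%. Without the 4 eIF3e genes 7 of 9 fell from 0 to 64 h and 6 of 9 at 16 h. The subunits shared with budding yeast fell mostly by 16 h: NIP1 (subunit c) went from 166, 153 and 111 CPM to 56.6, 67.4 and 78.9 CPM, a log2 fold change of -1.08 (SE 0.29, adjusted p = 0.00804). PRT1 (b), TIF34 (i) and TIF35 (g) fell by 1.10, 0.80 and 0.84 over the same interval and by 1.17, 1.02 and 0.81 from 0 to 64 h. The 64 h calls of these 3 ended under library size scaling, and the 16 h calls of PRT1 and TIF34 in 5 and 6 alternatives.

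RPG1, subunit a, took another course. It fell to 16 h, from 116, 124 and 85.1 CPM to 50.2, 42.5 and 56.9 CPM (log2 -1.12, SE 0.29, adjusted p = 0.00685), and stood at 205, 113 and 145 CPM at 64 h, where it did not differ from 0 h by the test (log2 0.51, SE 0.29, adjusted p = 0.146). All 16 h libraries were below all others. Its rise from 16 to 32 h (log2 0.81, SE 0.29, adjusted p = 0.0452) was lost in 15 of 24 alternatives. HCR1, the loosely bound subunit j, did not pass in any comparison and spread from 32.4 to 153 CPM within 64 h.

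Subunits d, e, f and h are found in fission yeast and mammals and are missing from budding yeast. The eIF3f gene WICANDRAFT_77519 stood at 78.4, 64.9 and 88.7 CPM at 0 h, 39.6, 13.9 and 39.5 CPM at 16 h, 6.34, 5.63 and 13.5 CPM at 32 h, and 12.3, 27.1 and 7.73 CPM at 64 h, all later libraries being below 0 h. It fell by 2.30 from 0 to 64 h (log2, SE 0.52, adjusted p = 0.00203) in every alternative, and by 1.32 (adjusted p = 0.0477) and 1.87 (adjusted p = 0.0134) in the first and second 16 h, calls lost in 14 and 3 alternatives. The eIF3d gene WICANDRAFT_83125 and the eIF3h gene WICANDRAFT_33790 fell by 1.23 (SE 0.23, adjusted p = 0.00057) and 1.31 (SE 0.30, adjusted p = 0.00246) from 0 to 64 h, the latter call ending under library size scaling.

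There were 4 genes annotated as eIF3e, in 2 pairs by length, none of which reached the 20 CPM of the rule for named genes, so that they were chosen after their values were seen. The pair of 484 bp, WICANDRAFT_61635 and WICANDRAFT_61537, stood at 6.99, 10.3 and 2.22 CPM and at 3.87, 5.22 and 2.58 CPM at 0 h. Their counts over the 3 libraries of a group were 758 and 433 at 0 h, 144 and 75 at 16 h, 10 and 7 at 32 h, 20 and 22 at 48 h, and 2 and 2 at 64 h. At 64 h replicates 1 and 2 held 0 counts of either gene, which allows up to 0.15 and 0.13 CPM.

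The ratio of 0 h to 64 h was 243 for WICANDRAFT_61635 (exact 95% interval 66.9 to 2010, counting error only) and 139 for WICANDRAFT_61537 (38.1 to 1150). Both fell in the edgeR fit (adjusted p = 0.000569 and 0.000245). The shorter pair, WICANDRAFT_37121 of 296 bp and WICANDRAFT_65864 of 243 bp, stood at 8.05, 8.70 and 6.93 CPM and 4.29, 3.998 and 3.10 CPM at 0 h, and at 6.43, 6.43 and 7.27 CPM and 4.84, 3.73 and 4.72 CPM at 64 h. For both genes the ranges at 0 h and 64 h overlapped, and neither passed in any comparison. How reads were divided between these 4 genes, whose sequences were not compared, was not tested.

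**Figure D5:**
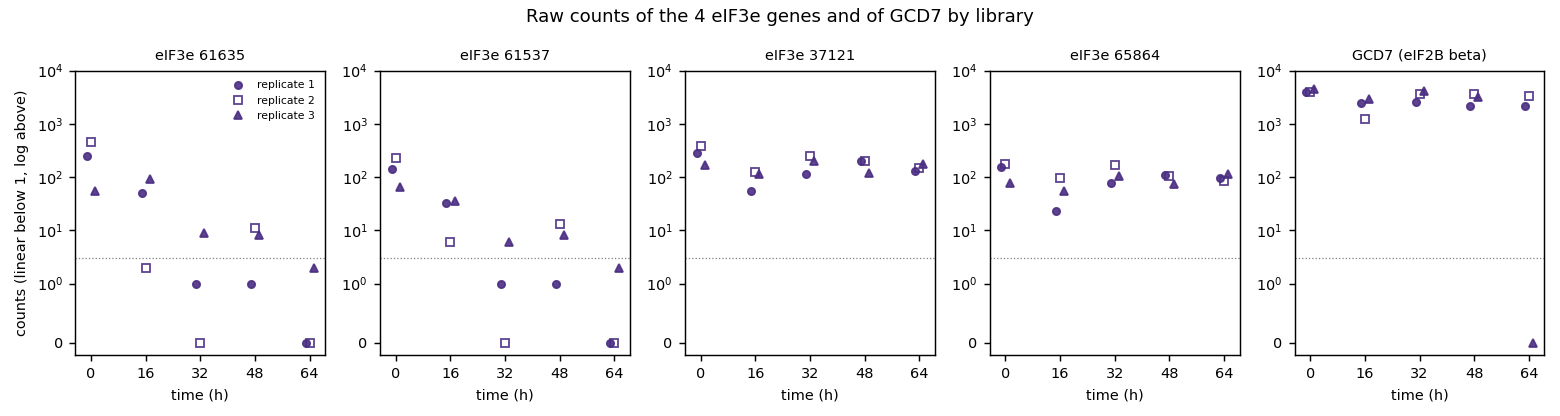
Raw counts (vertical axes, linear below 1 and logarithmic above; dotted line at the floor of 3) of the 4 eIF3e genes and of GCD7 against time (horizontal axes, symbols set slightly apart by replicate). The pair of 484 bp drops from 758 and 433 counts per group at 0 h to 2 each at 64 h, the shorter pair shows no such drop, and GCD7 is at 0 in 1 library only. The counts are not corrected for library depth, which was lower at 64 h than at 0 h.

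The eIF5A gene WICANDRAFT_80971 encodes a protein that relieves stalled ribosomes and carries the modified residue hypusine. Its level was 817, 698 and 1793 CPM at 0 h, 1190, 150.2 and 563 CPM at 16 h, and 1367, 2164 and 393 CPM at 64 h. Replicate 2 at 16 h and replicate 3 at 64 h were far below their neighbours, and the gene did not pass in any comparison. DYS1, the first enzyme of hypusine synthesis and no member of the 46, rose from 206 ± 64.3 to 814 ± 261 CPM (SD, n = 3) by 16 h (log2 1.98, SE 0.43, adjusted p = 0.00228) and fell to 163 ± 69.2 CPM by 32 h (log2 -2.32, SE 0.44, adjusted p = 0.00138). At 64 h DYS1 was lower than at 0 h (log2 -1.11, SE 0.42, edgeR adjusted p = 0.0379). LIA1, also of hypusine synthesis, did not pass at 16 h (log2 0.35, SE 0.34, edgeR adjusted p = 0.43).

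Of the 2 mitochondrial factors TUF1 rose between 16 and 32 h and IFM1 did not pass in any comparison. TUF1, the mitochondrial counterpart of eEF1A, was at 550.4, 420.1 and 908 CPM at 0 h, 1561, 298 and 686 CPM at 16 h, 3836, 2361 and 1926 CPM at 32 h, and 958, 790 and 1144 CPM at 64 h. The 32 h libraries were above all 0 h, 16 h and 64 h ones. TUF1 rose by 1.67 from 16 to 32 h (log2, SE 0.54, adjusted p = 0.0302), a call lost in 5 alternatives that each removed libraries. Under library size scaling the value was 2.97. IFM1, the mitochondrial initiation factor, lay between 8.68 and 34.3 CPM.

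Between 16 and 32 h the calls went in both directions. For 32 h against 16 h 5 members rose (10.9%, against 14.1% of all genes) and 10 fell (21.7%, against 17.7%), shares near those of the whole table, with a median of -0.27 against -0.06. Under library size scaling 19 rose and 2 fell, beside 44.4% and 4.5% of all genes, again shares near those of the members. The median was then 0.96, beside 1.10 for all genes, and 19 of the 46 members went from a value below 0 to one above 0, so their direction in this interval depends on the scaling. Relative to all genes the median was -0.22 with TMM and -0.14 without, values kept close by the subtraction. With the 2 libraries that stood apart left out, 6 rose and 15 fell, beside 22.8% and 24.1% of all genes.

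Besides TUF1 and RPG1, the members that rose were MRI1, RIA1 and WICANDRAFT_35975. MRI1, an enzyme of methionine salvage that the annotation relates to eIF2B, went from 26.5, 29.4 and 20.4 CPM at 16 h to 178, 132 and 50.2 CPM at 32 h (log2 2.24, SE 0.65, adjusted p = 0.0178), a call lost without 16 h replicate 3 or 32 h replicate 1. At 64 h it held 22.6, 11.6 and 100.6 CPM, so that its log2 fold change from 0 h was 0.04 with replicate 3 and -1.36 (adjusted p = 0.0367) without. RIA1, a GTPase of large ribosomal subunit maturation related to eEF2, went from 82.4, 109 and 76.2 CPM at 16 h to 370.1, 273 and 125 CPM at 32 h (log2 1.52, SE 0.48, adjusted p = 0.0255), every 32 h library being above the 16 h ones, and the call was lost in 5 alternatives that each removed libraries. RIA1 was also higher at 64 h than at 0 h (log2 1.66, SE 0.48, adjusted p = 0.0096), at 137, 99.8 and 273 CPM against 62.0, 60.2 and 39.1 CPM, although without 64 h replicate 3 the adjusted p was 0.0534. WICANDRAFT_35975, which the annotation calls a predicted relative of eIF3a, rose by 0.85 (SE 0.29, adjusted p = 0.0355), a call lost in 7 alternatives, the replicate block among them.

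The remaining related genes include ATPases of the eEF3 class and factors at the edge of initiation. NEW1, an eEF3-like ATPase that helps translation termination in budding yeast, fell by 2.02 from 0 to 64 h (log2, SE 0.49, adjusted p = 0.00329), from 184, 178 and 102 CPM to 26.9, 18.6 and 68.9 CPM. GCN20, which takes part in sensing uncharged tRNA, lay between 63.0 and 149 CPM, changed over the 5 time points (edgeR F test, adjusted p = 0.0456) and did not pass in any of the 5 comparisons, although 4 alternatives called it risen from 48 to 64 h. TIF6, the eIF6 homologue that keeps the large subunit free, and TMA22, a relative of eIF1 that acts in ribosome recycling, fell by 1.56 (adjusted p = 0.0143) and 1.09 (adjusted p = 0.0125) from 0 to 64 h. Both calls were lost without 0 h replicate 3, that of TIF6 also without 64 h replicate 1 and that of TMA22 also under library size scaling. SKI7, an eEF1A-like protein of mRNA surveillance, did not pass in any comparison.

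A further list of 20 genes that work beside these factors, of which 19 were tested, held 2 risen and 3 fallen at 16 h, beside 22.6% and 17.8% of all genes. Between 16 and 32 h 1 rose and 5 fell (14.1% and 17.7% of all genes), and for 64 h against 0 h 3 rose and 10 fell (26.6% and 25.8% of all genes). MOG1, a nuclear transport factor that the text search for release factors also matched, is counted among the risen in the last 2 of these comparisons. PAB1, the poly(A)-binding protein that contacts eIF4G, fell by 3.09 (log2, SE 0.82, adjusted p = 0.00576), from 309 ± 68.2 to 36.3 ± 25.2 CPM (SD, n = 3). The termination factors SUP35 and SUP45 fell by 1.47 (adjusted p = 0.000838) and 1.29 (adjusted p = 0.00201), and TIF3, the eIF4B helper of the helicase, by 1.32 (adjusted p = 0.00893). EAP1, which binds eIF4E in competition with eIF4G, rose from 133 ± 9.22 to 457 ± 181 CPM (log2 1.78, SE 0.36, adjusted p = 0.000925). GCN2, the kinase of eIF2 alpha, rose by 0.80 (SE 0.32, adjusted p = 0.0451), and GCN4, the transcription factor whose translation responds to that kinase in budding yeast, fell by 1.43 (SE 0.55, adjusted p = 0.041). Of the 3 genes listed for eIF2 control 0 passed the F test over the 5 time points. Of 87 cytosolic ribosomal protein genes 72 fell and 0 rose at 16 h, with a median log2 fold change of -2.48. At 64 h 45 fell and 2 rose, with a median of -1.23. The results for this list and for the ribosomal protein genes were not recomputed under the alternatives.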

How the data were processed

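Per the submitters' processing notes, reads were handled with fastp, HISAT2 and HTSeq, and versions, strandedness and the genome build are not given in the sources used here. The deposited file holds raw counts per gene and library, made by the authors and not normalized. All 6571 identifiers matched locus tags of the RefSeq assembly Wican1, which gave symbols and lengths, and the KOG text of the deposited table defined the 46 members.

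The fit used edgeR 4.0.16 under R 4.3.3: filterByExpr by time point (6327 genes kept), TMM scaling, and a quasi-likelihood model with a mean per time point over the 15 libraries (10 residual degrees of freedom, biological coefficient of variation 0.418). P-values were adjusted by Benjamini-Hochberg over all tested genes within each of 5 comparisons and the F test over time, with a threshold of 0.05; rose and fell mean past it. SE, an approximation, is the size of a log2 fold change over the root of its F value. Groups come from the sample titles, and all libraries were used. The model was also run on simulated counts with the spread of the fit, in which few genes changed and no library stood apart. That run tests neither the scaling nor the effect of libraries that stood apart.

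The members, the lists and the tests were chosen with earlier results of these data known. Named genes are a panel of core factors and, per comparison, up to 4 called rises and 4 called falls with at least 20 CPM in the higher group; others named were chosen after their values were seen. PCR copies cannot be told from independent molecules, so floors of 3 counts and intervals cover counting error only. Alternatives were DESeq2 1.42.0, limma-voom (limma 3.58.1), median-of-ratios factors, library size scaling, no filter, a filter at a mean of 10 CPM, the 6 libraries compared alone, the replicate number as a block, each library left out, and both libraries that stood apart left out. No coordinates or sequences are given, since no genome was used.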

Additional observations from a re-analysis of the deposited data

How the results depend on the processing

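The counts and medians of the members, and their calls, were recomputed under 24 alternatives where a value could be had. The results for genes outside the members were not, and rest on the main fit only. These are DYS1, LIA1 and the rest of the list of genes that work beside the factors, and the ribosomal protein genes. Leaving out libraries one at a time, members risen ranged from 0 to 1 and fallen from 7 to 13 for 16 h against 0 h, then from 0 to 6 and 4 to 14 by 32 h, stayed at 0 and 0 by 48 h, and ranged from 0 to 5 and 0 to 3 by 64 h. From 0 to 64 h they ranged from 1 to 2 and 19 to 24, and members changed over time ranged from 28 to 39. Under library size scaling 0 rose and 24 fell at 16 h, beside 9.8% and 27.7% of all genes. Under the same scaling 19 rose and 2 fell between 16 and 32 h, beside 44.4% and 4.5%. With only the 6 libraries compared, 0 rose and 9 fell at 16 h, beside 16.6% and 15.4% of all genes. Between 16 and 32 h 1 rose and 2 fell in that setting, with 44 members tested, beside 8.64% and 11.1%. From 0 to 64 h 1 rose and 24 fell, beside 25.9% and 24.6%. There limma-voom gave 1 risen and 23 fallen, beside 25.7% and 26.4%. For 64 h against 48 h DESeq2 gave 7 risen and 1 fallen, beside 9.31% and 4.54%. The fit without both libraries that stood apart gave 9 and 3, beside 14.6% and 15.7%. Of the called members, 7 of 14 at 16 h, 1 of 15 between 16 and 32 h, and 14 of 25 from 0 to 64 h kept the call in every alternative.

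Reversed in sign under library size scaling were the members' medians between 16 and 32 h (0.96), between 32 and 48 h (0.28) and between 48 and 64 h (-0.61; -0.01 with the filter at 10 CPM), as that scaling itself shifts all genes there. For 32 h against 16 h 19 members went from below to above 0. Of these, 5 were called under TMM or under library size scaling: WICANDRAFT_82540 (1.03), EFB1 (1.28), SUI2 (1.03), WICANDRAFT_83125 (0.45) and WICANDRAFT_33790 (0.23). The other 14 were called under neither. MRI1 from 0 to 64 h ranged from -1.36 without 64 h replicate 3 to 0.60 under library size scaling (0.49 at most with a library left out), and was -1.36 without both libraries that stood apart; the cause was not tested.

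With the replicate block 1 member rose and 9 fell at 16 h, beside 19.5% and 16.2% of all genes. Between 16 and 32 h 3 rose and 8 fell, beside 12% and 14.6%. From 0 to 64 h 1 rose and 22 fell, beside 24.6% and 23.9%. The labels do not say whether the numbers pair the libraries. Deviations from the mean of a group of 3 depend on each other, so their correlations cannot settle it. Deviations of same-numbered libraries correlated with a median of -0.12 over 30 pairs, 6 of them over 0.1. For differently numbered libraries the median was 0.05 over 60 pairs, 25 of them over 0.1. The closest library at another time point had the same number for 2 of 15. Depth limits the eIF3e pair of 484 bp at 64 h, at 0 to 2 counts per library.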
